A study of Equus caballus with 4 samples.

Results

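The genes described here are 10 imprinted genes known from muscle stem cells and their progeny, namely H19, DLK1, MEG3, PEG3, PEG10, MEST, CDKN1C, GRB10, NDN and PLAGL1. They were chosen by name and not by a threshold on their values, although earlier results of these data were known. A probe belonged to a gene if it was not a control and carried exactly that gene's symbol in the scanner files. This gave 12 probes for 6 of the 10 genes, out of 43603 different probes for 14450 named genes on the array. H19 had 2 probes, MEST 2, PLAGL1 5, and DLK1, PEG10 and GRB10 had 1 each. MEG3, PEG3, CDKN1C and NDN had no probe under their own symbol. A probe for PEG3 and a probe for NDN were found under provisional symbols whose gene number RefSeq pairs with these names. Both are reported beside the 12 probes and are not counted among them. An accession stands in place of a symbol for 15955 probes, so that further probes for these genes were not looked for.

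An imprinted gene is transcribed mainly from the allele of a single parent, which is set by DNA methylation laid down in the germ line and kept through cell division. Many such genes act on growth. Paternally expressed genes such as IGF2, PEG3 and MEST often favour it, whereas maternally expressed genes such as H19, CDKN1C and GRB10 often restrain it. In skeletal muscle, H19 is an abundant non-coding RNA that rises as myoblasts fuse and is the host of miR-675. PEG3 is a zinc finger protein present in satellite cells, and NDN favours exit from the cell cycle and differentiation. The arrays measured the RNA of both alleles together, so nothing here bears on which parental allele was transcribed.

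Equine satellite cells (ESC) are the muscle stem cells of the horse, which proliferate and fuse into myotubes. They came from the *m. semitendinosus* of young stallions, and attached fibroblasts had been reduced by pre-plating. Both groups were on day 3 of differentiation and were exposed to 3 mM H2O2 for 1 h. The HMB-treated group had 50 µM HMB, which is a leucine metabolite, in the medium for 24 h including that hour, and the control received H2O2 without HMB. RNA of the HMB-treated group carried Cy5 and that of the control Cy3, and both were hybridized to each of 4 arrays on 1 slide. The dyes were never swapped, so that dye and treatment cannot be told apart. In the labels, the control is numbered as replicate 1 on all 4 arrays, and the methods continue with the culture that had the best scores, so n = 4 need not be 4 horses or 4 controls. In that case the errors hold only the spread between these hybridizations.

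On each array the signals had been background-subtracted and normalized by lowess by the authors, and the ratio of Cy5 over Cy3 is given here on the log2 scale, where a value below 0 means less in the HMB-treated group. For a test, the Cy3 or the Cy5 signal of a probe had to be well above background on each of the 4 arrays, and 24669 probes met this. A call needed a limma adjusted p of at most 0.05 and also an FC of at least 1.3. Between 55.2% and 61.8% of the spots were well above background in a channel, and across probes, Pearson's r between 2 arrays was 0.837 to 0.920.

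The probes that the results turn on are shown by their own sequences, 5′ to 3′, since probes of a single gene did not all give the same ratio. Positions are on EquCab1 as the files list them, and the files do not say in which exon or untranslated region a probe lies. Both H19 probes carry the accession of a non-coding RNA and are given in full. They lie 1425 bases apart on the unplaced sequence, at chrUn:277383504-277383563 and chrUn:277384989-277385048, plus strand.
H19 A_69_P113426: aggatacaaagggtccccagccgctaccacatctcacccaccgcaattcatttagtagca
H19 A_69_P129876: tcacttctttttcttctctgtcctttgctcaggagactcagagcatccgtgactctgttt

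The GRB10 probe lies at chr4:20467920-20467979 on the minus strand. The MEST probe that is described here lies at chr4:84396523-84396582, plus strand. Only the first 30 of their 60 bases are given.
GRB10 A_69_P078371: ttatgacctcagatttactcttggctgaag
MEST A_69_P079861: tttcacttaggaagaaatgcccaaaagagg

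The 5 PLAGL1 probes are nearly the same sequence. Each starts 1 base before the next, so that together they cover 64 bases at chr31:21952791-21952854, plus strand, of which 56 are shared by all 5. They are thus repeated readings of a single site rather than 5 sites. In the first 30 bases of each, capitals mark the stretch that all 5 probes share.
PLAGL1 A_69_P008021: CAGATGACTGGTTTTTGAAGCCTACTTGTC
PLAGL1 A_69_P008022: tCAGATGACTGGTTTTTGAAGCCTACTTGT
PLAGL1 A_69_P008023: ttCAGATGACTGGTTTTTGAAGCCTACTTG
PLAGL1 A_69_P008024: attCAGATGACTGGTTTTTGAAGCCTACTT
PLAGL1 A_69_P008025: cattCAGATGACTGGTTTTTGAAGCCTACT

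Of the 12 probes, 10 passed the filter and were tested. H19 by 1 of its 2 probes and GRB10 by its single probe were called lower in the HMB-treated group, and 0 probes were called higher by limma. At an unadjusted p under 0.05, 4 probes were higher, all of PLAGL1, and the methods' t-test called 0 and limma with array quality weights 1. Over all tested probes, 28.6% were called in either direction, 16.4% as lower and 12.1% as higher, so that 2 called among 10 was no more than the share of the array. The median log2 ratio of the 10 probes was 0.08, beside -0.07 over all tested probes. Since 5 of the 10 probes read the same PLAGL1 site, the 4 genes were also taken by their brightest tested probe. Then 1 of 4 was called lower, namely GRB10, with a median log2 ratio of -0.19. Over all gene symbols taken in the same way, 17.2% were called lower and 10.2% higher, with a median of -0.09.

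**Figure D1:**
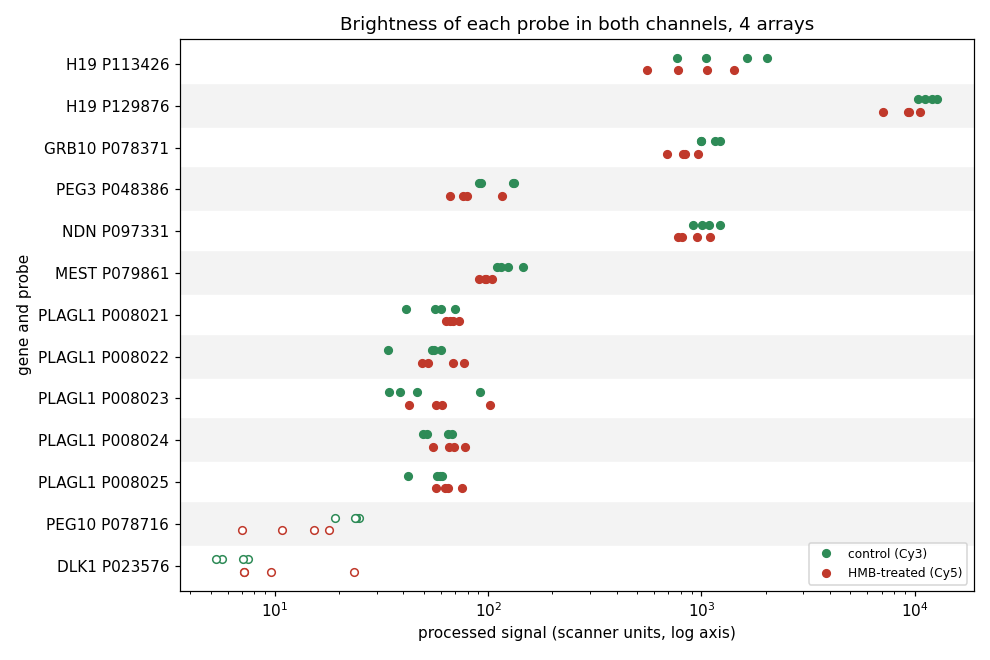
Processed signal of each probe described here in scanner units on a log axis, with 1 point per array for the control (Cy3) and for the HMB-treated group (Cy5). Filled points are tested probes and open points are PEG10 and DLK1, whose signals of 5.29 to 24.8 were not well above background in either channel on any array.

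H19 was read brightly by its downstream probe, A_69_P129876. In the control channel its signals were 12040, 11155, 12786 and 10387 on replicates 1 to 4, and in the HMB channel 9433, 9330, 10641 and 7067. On each array the HMB channel was the dimmer of the pair, although the range of the HMB signals reached up to the lower control signals. The log2 ratios were -0.35, -0.26, -0.26 and -0.56, with a mean of -0.36 ± 0.14 (SD, n = 4, adjusted p = 0.00969). All 4 arrays were lower, yet the FC of 1.28 was just under the threshold of 1.3, so the probe was not called. It was called lower with normexp (-0.40, adjusted p = 0.00326) and with spike-in scaling. The same was so without replicate 2 (-0.39, adjusted p = 0.0239) and without replicate 3 (-0.39, adjusted p = 0.0244).

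The upstream H19 probe, A_69_P113426, gave control signals of 1048, 1628, 2020 and 766, and HMB signals of 1067, 779, 1418 and 555. Its log2 ratios were 0.03, -1.06, -0.51 and -0.46, so that replicate 1 showed no difference and replicate 2 the largest. The mean was -0.50 ± 0.45 (SD, n = 4) with an FC of 1.42 and an adjusted p of 0.0448, and the probe was called lower. The call did not hold without replicate 2, where the mean was -0.32 (adjusted p = 0.106). Without replicate 3 or 4 it was lost as well (adjusted p = 0.128 and 0.0971), with means of -0.50 and -0.52. It was also lost with normexp (adjusted p = 0.0780), median centering (0.0577), scale normalization (0.0521), array quality weights (0.0805), no filter (0.177), the methods' t-test (0.183) and limma's treat (1).

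Both H19 probes were thus lower on average, but by unequal amounts on the single arrays. The log2 ratio of the upstream probe minus that of the downstream probe was 0.38, -0.81, -0.25 and 0.09 on replicates 1 to 4. Its mean of -0.15 ± 0.51 (SD, n = 4) was smaller than the spread between arrays. When the ratios of both probes were averaged first, H19 had a log2 ratio of -0.43 and was called (adjusted p = 0.0109).

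GRB10 encodes an adaptor that binds the insulin and IGF1 receptors and restrains their signalling. Its control signals were 1152, 999, 1226 and 1001, and its HMB signals 840, 816, 967 and 691. Every control signal was above every HMB signal. The log2 ratios were -0.46, -0.29, -0.34 and -0.53, with a mean of -0.41 ± 0.11 (SD, n = 4, 95% interval -0.57 to -0.24). The probe was called lower with an FC of 1.33 and an adjusted p of 0.00435. The call lay close to the threshold of size, since without replicate 4 the mean was -0.36 and the probe was no longer called although its adjusted p was 0.0197. The same was so with normexp (log2 ratio -0.30), without background correction (-0.29) and after median centering (-0.31).

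**Figure D2:**
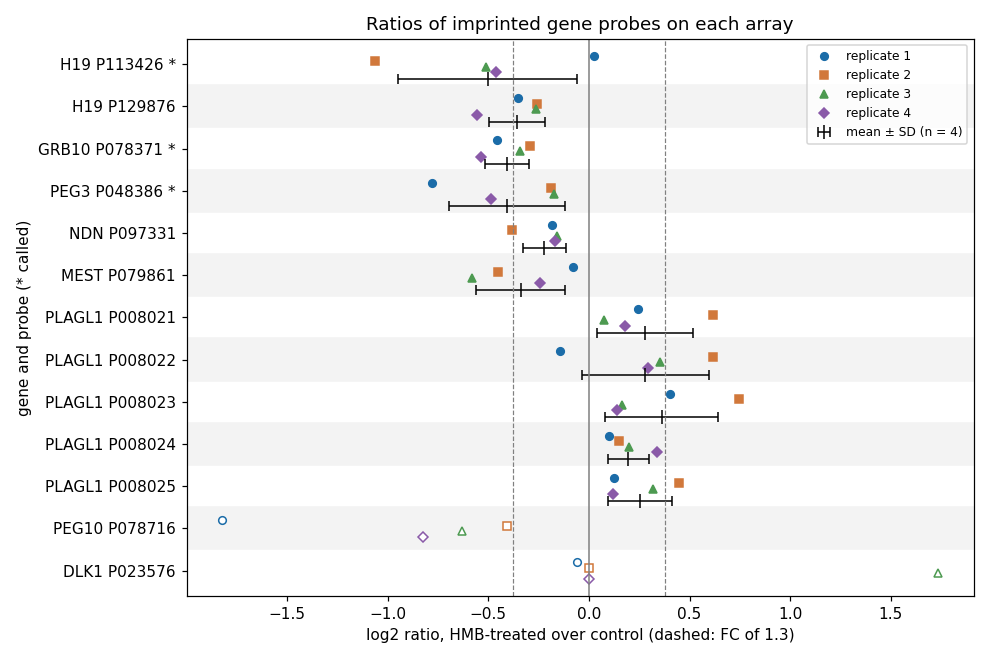
The log2 ratio of each probe described here on each of the 4 arrays, with the mean and SD as bars for tested probes and dashed lines at an FC of 1.3. GRB10 and the downstream H19 probe were below 0 on all 4 arrays, whereas the PLAGL1 probes lay above 0 in 19 of 20 readings, which turned below 0 as means when the arrays were scaled to spike-in RNA without lowess.

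PEG3 was read by the probe A_69_P048386 at chr10:20554685-20554744, minus strand. It was dim, with control signals of 130, 90.6, 132 and 92.8 and HMB signals of 75.8, 79.6, 117 and 66.3. The log2 ratios were -0.78, -0.19, -0.18 and -0.49, so that all arrays were lower and replicate 1 the most. With a mean of -0.41 ± 0.29 (SD, n = 4), an FC of 1.33 and an adjusted p of 0.0274, the probe was called lower. This call was lost without replicate 1 (adjusted p = 0.0701), without replicate 4 (0.0834) and with normexp (log2 ratio -0.17, adjusted p = 0.0992). It was also lost with the methods' t-test, with limma's treat, without background correction and without the filter on dim probes.

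NDN, a member of the MAGE family that binds E2F1, was read by A_69_P097331 at chr1:106949273-106949332, minus strand. The control signals were 1086, 1009, 1226 and 908 and the HMB signals 957, 775, 1100 and 808. The log2 ratios were -0.18, -0.38, -0.16 and -0.17, with 3 arrays close together and replicate 2 apart. The mean of -0.22 ± 0.11 (SD, n = 4, adjusted p = 0.0369) corresponds to an FC of 1.17, and NDN was not called.

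MEST encodes an enzyme-like protein of the alpha/beta hydrolase fold that is abundant in embryonic mesoderm. Its probe A_69_P079861 had log2 ratios of -0.08, -0.45, -0.58 and -0.24, from signals of 109 to 146 in the control and 90.9 to 104 in the HMB channel. Its mean of -0.34 ± 0.22 (SD, n = 4) had an FC of 1.26, under the threshold, at an adjusted p of 0.0280. Without replicate 1 it was called lower, at a mean of -0.43 and an adjusted p of 0.0194, but it was only at -0.04 with normexp and at -0.11 without background correction. These values are of this probe alone and are not given as the level of the gene, since the other MEST probe is not reported here.

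PLAGL1 is a zinc finger transcription factor that halts the cell cycle and acts on other imprinted genes. Its site was dim, with control signals of 34.1 to 91.3 and HMB signals of 42.3 to 102 over all 5 probes. The mean log2 ratios of the 5 probes ran from 0.20 to 0.36, and none was called. Their adjusted p ran from 0.0384 for A_69_P008023 to 0.106 for A_69_P008022. The highest mean, that of A_69_P008023, came from 0.40, 0.74, 0.16 and 0.14 on replicates 1 to 4 and had an FC of 1.29.

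Because the 5 probes differ by a shift of single bases, their scatter on an array shows how well a ratio at this brightness was read. On replicate 1 the 5 log2 ratios ran from -0.14 to 0.40 (SD between probes 0.20), and on replicate 2 from 0.15 to 0.74 (SD 0.23). They were closer on replicate 3, from 0.07 to 0.36 (SD 0.11), and on replicate 4, from 0.12 to 0.34 (SD 0.10). The mean of the 5 probes was 0.14, 0.51, 0.22 and 0.21 on the 4 arrays, on average 0.27 ± 0.16 (SD, n = 4). It was above 0 on each array as deposited, but below 0 when the arrays were scaled to spike-in RNA without lowess, where the probe means ran from -0.54 to -0.42. Single probes passed the threshold as higher when replicate 1 was left out (A_69_P008022, log2 ratio 0.42) and when replicate 4 was left out (A_69_P008023, log2 ratio 0.44).

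PEG10, a gene derived from a retrotransposon and needed in the placenta, and DLK1, a transmembrane protein of muscle and fat precursors, were not measured well enough to be tested. The PEG10 probe at chr4:37768311-37768370 had control signals of 24.8, 23.9, 23.6 and 19.2 and HMB signals of 7.03, 18.0, 15.3 and 10.8. These signals differed from background on all 4 arrays but were not well above it on any. The DLK1 probe at chr24:42108129-42108188 had signals of 5.29 to 7.48 in the control and 7.18 to 23.5 in the HMB channel. A surrogate value stood in for the signal on 2 arrays in Cy3 and on 3 in Cy5, so its ratios carry no level. No FC is given for either gene. For MEG3 and CDKN1C no probe was found, and their values are not reported here.

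**Figure D3:**
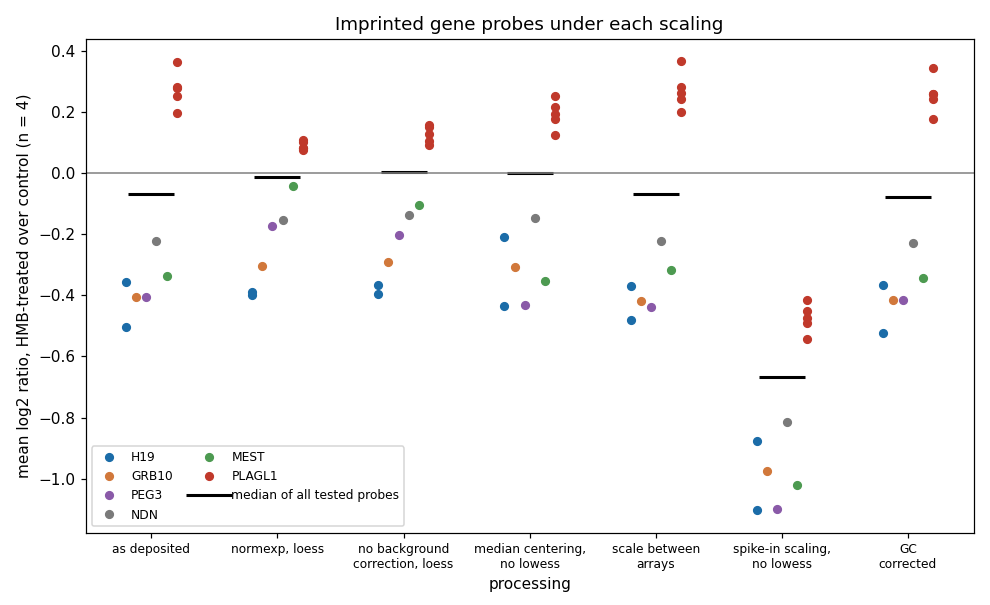
Mean log2 ratio (n = 4) of the tested probes described here, with PEG3 and NDN, under 7 ways of scaling, and the median of all tested probes as a black bar. H19, GRB10, PEG3 and NDN were below 0 in each, and PLAGL1 was above 0 except with spike-in scaling without lowess, where the median of all probes was -0.67 instead of -0.07.

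The deposited scaling sets the bulk of the probes near 0 on each array. In spike-in scaling, lowess was left out and each array was shifted by a constant that set RNA added to both samples in known proportions to 0. All 10 probes were then called lower, beside 20165 of 24659 tested probes called in either direction, 4.94% of them higher. The median over all tested probes was -0.67. Relative to that median, the GRB10 probe was at -0.31, the H19 probes at -0.44 and -0.21, and the PLAGL1 probes between 0.13 and 0.25. Since the shift is the same for all probes of an array, these distances are those of median centering without lowess, and the turn of PLAGL1 below 0 is the shift itself.

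The other imprinted genes on the array showed small differences as well. Of 34 genes listed, 11 had no probe under their symbol, 12 had a probe that was not tested and 11 were tested. IGF2 and IGF2R were called lower, INPP5F was called higher, and 8 were not called, beside 17.2% lower and 10.2% higher over all gene symbols. The median of the 11 was -0.25, beside -0.09 over all gene symbols. IGF2, the growth factor that shares its enhancers with H19, had log2 ratios of -0.58, -0.74, -0.27 and -0.62, on average -0.55 ± 0.20 (SD, n = 4, adjusted p = 0.00365). The IGF2 signals of 819 to 1161 in the HMB channel all lay under the control signals of 1263 to 1577. IGF2R, the receptor that removes IGF2, was dim and had a mean of -0.61 ± 0.21 (SD, n = 4, adjusted p = 0.00295). IGF2R was not called with normexp (-0.19, adjusted p = 0.0647) or without background correction (-0.24). It entered the test through the control channel alone, since its HMB signal was well above background on only 3 of 4 arrays. The lower call of IGF2R is thus not independent of the filter.

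INPP5F, an inositol phosphatase, had a log2 ratio of 0.47 ± 0.23 (SD, n = 4, adjusted p = 0.00896), which was -0.21 with spike-in scaling. INPP5F was not called with normexp (0.22), without background correction (0.31) or with the methods' t-test (adjusted p = 0.0666). UBE3A, the ubiquitin ligase of the Angelman locus, was very even at -0.34, -0.32, -0.37 and -0.41, and its FC was just under the threshold (mean -0.36, adjusted p = 0.00393). Of the 2 tested UBE3A probes the other was called lower, and UBE3A was called with the GC correction (-0.38) and as the mean of its probes (-0.44, adjusted p = 0.00239). TFPI2 was uneven, from -0.22 to 0.88, and was not called (adjusted p = 0.118).

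**Figure D4:**
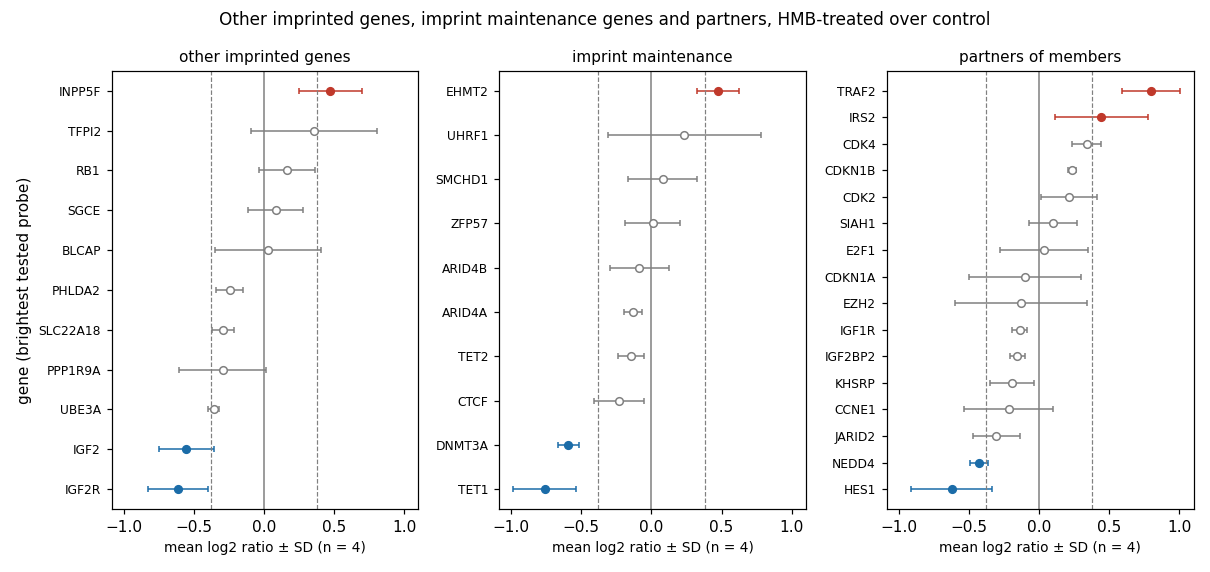
Mean log2 ratio with SD (n = 4 arrays) of the tested genes of 3 lists, by the brightest tested probe, with dashed lines at an FC of 1.3. Filled points are called genes, 3 of 11 other imprinted genes, 3 of 10 imprint maintenance genes and 4 of 16 partners. Over all gene symbols, 17.2% were called lower and 10.2% higher. INPP5F, EHMT2 and IRS2, called higher, turned below 0 with spike-in scaling.

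Among 15 genes listed for imprint maintenance, which set or keep imprints or act on methylated cytosine, 10 were tested. DNMT3A, a methyltransferase that lays down DNA methylation, was called lower at -0.69, -0.51, -0.60 and -0.57 on the log2 scale, on average -0.59 ± 0.08 (SD, n = 4, adjusted p = 0.000718). TET1, an enzyme that oxidizes methylated cytosine, was called lower at -0.76 ± 0.23 (SD, n = 4, adjusted p = 0.00145). Both were dim, with signals of 29.0 to 79.9, and neither was called with normexp (-0.18 for DNMT3A and -0.19 for TET1) or without background correction. DNMT3A entered the test through the control channel alone, since its HMB signal was well above background on only 3 of 4 arrays. Its lower call is thus not independent of the filter. EHMT2, a histone methyltransferase, was called higher at 0.48 ± 0.15 (SD, n = 4, adjusted p = 0.00373), which was -0.31 with spike-in scaling. EHMT2 was not called with normexp (0.11, adjusted p = 0.138), without background correction (0.18) or after median centering (0.35). CTCF, the insulator protein that binds the control region between H19 and IGF2, was not called at -0.23 ± 0.18 (SD, n = 4, adjusted p = 0.0612). UHRF1 was not called either (0.23 ± 0.55, adjusted p = 0.362). The median of the 10 genes was -0.11. Of all gene symbols, 17.2% were called lower and 10.2% higher.

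Of 24 genes known as partners of the imprinted genes, 16 were tested. TRAF2, an adaptor of TNF receptor signalling that binds PEG3, was called higher at 0.99, 0.75, 0.92 and 0.53, on average 0.80 ± 0.21 (SD, n = 4, adjusted p = 0.000972). With spike-in scaling its log2 ratio was 0.14 and it was not called (adjusted p = 0.384). IRS2, a substrate of the insulin receptor, was called higher at 0.45 ± 0.33 (SD, n = 4, adjusted p = 0.0295), which was -0.21 with spike-in scaling. The IRS2 call was lost without replicate 2 (adjusted p = 0.0779), 3 (0.0815) or 4 (0.0790), with the methods' t-test (0.138), with array quality weights (0.0526), without the filter, with normexp (0.23 on the log2 scale) and without background correction (0.32). NEDD4, a ubiquitin ligase that acts together with GRB10, was called lower at -0.43 ± 0.06 (SD, n = 4, adjusted p = 0.00231). HES1, a target of Notch signalling, was called lower at -0.62 ± 0.29 (SD, n = 4, adjusted p = 0.00590). With normexp, NEDD4 and HES1 were both at -0.24, without background correction they were at -0.27 and -0.29, and neither was called in these settings. HES1 was also not called with the methods' t-test (adjusted p = 0.0630) or without the filter (0.0515). CDK4 was not called at 0.34 ± 0.10 (SD, n = 4, adjusted p = 0.00801) and was at -0.21 with spike-in scaling, but was called higher without background correction (0.42) and after median centering (0.45). The median of the 16 genes was -0.12, close to that over all gene symbols, of which 17.2% were called lower and 10.2% higher.

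The genes beside the imprinted genes on the chromosomes were looked up in the RefSeq order of the horse genome, taking 2 named protein-coding genes on each side. Genes with only a provisional symbol were passed over. MEG3 gave no neighbours. Of 36 such neighbours of the other genes, 14 were tested, of which limma called 6 lower and 0 higher, beside 17.2% and 10.2% of all gene symbols. IGF2, SGCE, PPP1R9A, SLC22A18 and PHLDA2 were also counted above among the other imprinted genes, so the counts overlap. With normexp or without background correction, IGF2 and TNNT3 were called and COBL, CASD1, SNURF and LTV1 were not. At an unadjusted p under 0.05, 1 neighbour was higher, namely STX11 (0.34, limma adjusted p = 0.00720), which was under the threshold of size only. STX11 was called higher after median centering (0.41) and was at -0.25 with spike-in scaling. The methods' t-test called 0 neighbours higher. Beside H19, IGF2 and TNNT3 (-0.57 ± 0.15, SD, n = 4, adjusted p = 0.00191), a troponin of fast muscle, were called lower, whereas MRPL23 was not called (-0.17, adjusted p = 0.0804). Beside GRB10, COBL was called lower (-0.47, adjusted p = 0.00268). Next to NDN, SNURF was called lower (-0.40, adjusted p = 0.00531). SGCE, which adjoins PEG10 and is imprinted together with it, was not called (0.08, adjusted p = 0.472), while CASD1 beyond it was called lower (-0.51, adjusted p = 0.00251). Near CDKN1C, which had no probe, PHLDA2 (-0.25, adjusted p = 0.0246) and SLC22A18 (-0.29, adjusted p = 0.0114) lay under the threshold of size. Around PLAGL1, LTV1 was called lower (-0.41, adjusted p = 0.00560), and SF3B5 and STX11 were not called.

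Markers of the cell types that the cultures could hold were read on the same arrays. PAX7, a defining marker of satellite cells, had no probe under its symbol. Of 14 muscle markers, 10 were tested and 7 were called lower, beside 17.2% of all gene symbols. The median log2 ratio of the 10 was -1.02. Among those called lower were MYF5 (-1.49), DES (-1.22) and MYH3 (-1.38). MYOD1 pointed the other way (0.32, adjusted p = 0.0441, above 0 on 3 of 4 arrays) but was under the threshold of size. MYOG (0.03) and MEF2C (-0.15) were not called either. With normexp MYF5 was at -0.71, and MYF6 (-0.15) was not called. MYF6, 1 of the 7 called lower, entered the test through the control channel alone, so its call is not independent of the filter. Its HMB signals of 11.3 to 19.6 were well above background on 0 of 4 arrays. The summed signal of the muscle markers was 169826 to 191641 in the control and 64880 to 103190 in the HMB channel. Of 8 fibroblast markers, 7 were tested and 4 were called higher, beside 10.2% of all gene symbols. These were PDGFRA (1.49), THY1 (0.76), DCN (0.77) and LUM (0.42). Of them, THY1 (0.18) and LUM (-0.08) were not called with spike-in scaling and LUM (0.37) not with normexp. With normexp PDGFRA was at 0.47. As deposited, COL1A2 (-0.23), COL3A1 (0.06, with 3 of its 7 tested probes called higher) and POSTN (0.37) were not called. After median centering COL1A2 (0.70) and COL3A1 (0.84) were called higher, while POSTN (0.41) was not. The summed signal of the fibroblast markers was 413499 to 503755 in the control and 405757 to 633773 in the HMB channel, so that these ranges overlap. COL1A2 alone had signals of 219082 to 280814 in the control, so these sums follow the brightest markers. Of 7 macrophage and leukocyte markers, 2 were tested and 1 was called higher, beside 10.2% of all gene symbols. This was CD68 (0.88, but 0.20 and not called with spike-in scaling). CD14 was not called, and CSF1R, ITGAM and AIF1 were not tested. None (0) of the 5 endothelial and of the 5 adipocyte markers was well enough above background to be tested. In bulk RNA, fewer cells of a type and less RNA per cell cannot be told apart. The part of these marker shifts in the lower ratios of H19, GRB10, PEG3 and IGF2 was not tested.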

How the data were processed

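Gene expression was measured on 4 Agilent horse arrays of 2 colours, each with RNA of the HMB-treated group (Cy5) and of the control (Cy3). For the intensity values, the authors deposited scanner output with the brightness of each spot per channel, background-subtracted and normalized inside each array (linear and lowess). The deposited log10 ratios of Cy5 over Cy3 were written by Feature Extraction (version 10.10.1.1 in the file headers), and the table of normalized values of the authors repeats these log10 ratios. The log2 ratios are the deposited log10 ratios times 3.3219281. Control spots (1264 positive, 153 negative) and spots that the software marked as non-uniform or outlying (13 to 35 per array, none (0) of them on the imprinted genes) were left out, and spots of a probe were averaged.

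The ratios were tested against 0 in R 4.3.3 with limma 3.58.1 (intercept, empirical Bayes, Benjamini-Hochberg over 24669 tested probes). A probe entered the test with the same channel well above background on each of the 4 arrays and with 3 or more ratios. Lists were described by counts and medians, each gene by its brightest tested probe. 1 of the MEST probes is not reported here, but it is kept in the fit, the counts and the medians over genes. Every other probe of the imprinted genes is named, and of the other lists the called genes of other imprinted genes and partners and up to 5 per list with the largest log2 ratio. Neighbours and markers are named in addition. The genes and lists were chosen with earlier results of these data known.

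Symbols are those in the files, and 1684 probes with a provisional symbol were named through the RefSeq gene number (Equus caballus TB-T2T assembly). The coordinates of that assembly were used only to order the neighbouring genes. Where a surrogate value stood in for a signal, a ratio is only a bound. Ratios of dim probes depend on how the background is handled. With normexp, which adds the offset of 50 to both channels, PDGFRA was at 0.47 against 1.49 as deposited. DNMT3A was at -0.18 against -0.59. Which setting reads dim probes better was not tested, so a call lost with normexp or without background correction does not show that a deposited ratio is wrong. The number of arrays limits the precision. The tests were tried on simulated data. Alternatives were normexp with an offset of 50, no background correction, median centering and spike-in scaling (both without lowess), scale normalization, a GC correction, other filters and tests, the authors' table, and each replicate left out.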

Additional observations from a re-analysis of the deposited data

Results flagged for a closer look

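Of 28 probes named with a value on all 4 arrays, 2 met Dixon's criterion for a replicate apart from the others, where chance gives about 1 in 20 (1.4 of 28). For DLK1, replicate 3 had a log2 ratio of 1.73, and its gap to the nearest replicate was 0.967 of the whole range. Neither channel of this probe was well above background on any array, and its ratios on replicates 2 and 4 were 0 from surrogate signals, so the gap does not show that replicate 3 stands apart. For NDN, replicate 2 had a log2 ratio of -0.38, with a gap of 0.882 of the range, and the NDN signals were well above background on all 4 arrays in both channels.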

How the results depend on the processing

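The authors' table, kept marked spots, the GC correction and moderation with a trend left the counts of called member probes at 2 lower and 0 higher. The number called lower was 1 with normexp, without background correction, after scale normalization, without the filter on dim probes, with the methods' t-test, with array quality weights and with 1 probe per gene (added once the data had been seen). With normexp this was the downstream H19 probe, whereas the upstream H19 probe and GRB10 were not called. The number was 0 after median centering and with treat, 10 with spike-in scaling, and 0 to 3 with each replicate left out. A probe was called higher (1) with array quality weights, and 0 to 1 with each replicate left out. The cause was not tested. Of the other imprinted genes, none (0) was called higher with normexp, without background correction, with spike-in scaling, without the filter, with the methods' t-test and with treat, and 2 with array quality weights. Lower were 1 with normexp, without background correction and with both channels required above background, 9 with spike-in scaling and 0 with treat. With each replicate left out, 1 to 2 were higher. Of the imprint maintenance genes, 0 were higher with normexp, without background correction, after median centering, with spike-in scaling and with treat. Lower were 0 with normexp and without background correction, 9 with spike-in scaling, and 1 with both channels required or with treat. Of the partners, 1 was higher with normexp, without the filter, with the methods' t-test, with treat, with array quality weights and in the range of 1 to 2 with each replicate left out, and 0 with spike-in scaling. Lower were 0 with normexp, without background correction and with treat, 13 with spike-in scaling, and 1 without the filter and with the methods' t-test. The counts of all lists moved with those of the whole array. With spike-in scaling, 20165 of 24659 tested probes were called, 4.94% of them higher. With normexp, 3539 of 24669 were called, 55.0% of them higher.

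Signs turned as follows. With spike-in scaling, which also leaves out lowess, the PLAGL1 probes were at -0.45, -0.47, -0.42, -0.54 and -0.49 in the order of their numbers, TFPI2 at -0.31, INPP5F at -0.21, UHRF1 at -0.43, EHMT2 at -0.31, IRS2 at -0.21 and CDK4 at -0.21. Among all called probes, 42.5% were higher, but 55.0% with normexp, 60.1% without background correction, 54.6% with treat and 4.94% with spike-in scaling. Of 24669 tested probes, 7046 were called, and 3539 with normexp, 4440 without background correction and 2822 with treat. With spike-in scaling, 20165 of 24659 tested probes were called.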
